A study of Mus musculus with 7 samples.

Results

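Histone H3 lactylated at lysine 18 (H3K18La) was followed at the genes for 10 histone deacylases, the histone deacetylases (HDACs) Hdac1, Hdac2, Hdac3, Hdac4, Hdac6 and Hdac9 and the sirtuins Sirt1, Sirt2, Sirt3 and Sirt6. Every peak that the deposited annotation assigned to one of these gene symbols was taken, which gave 66 of the 108253 merged peaks, at 9 of the 10 genes. No peak was assigned to Sirt6. CUT&Tag, in which an antibody brings an enzyme to the mark so that DNA fragments released there can be sequenced, was done on dissociated retinas of C57Bl/6J mice without treatment. Ages were postnatal day 4 (P4, 2 libraries), P10 (2 libraries) and P28 (3 libraries). By the labels, batch 2 held P28 replicate 1 alone and batch 1 the other 6. The study's methods call the replicates biological, but the labels do not say whether the libraries came from separate animals, so p-values measure the spread between these libraries, which may be technical.

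Histone deacylases remove acetyl and other acyl groups from lysines. HDACs use zinc, while sirtuins use nicotinamide adenine dinucleotide (NAD). HDAC1 and HDAC2 are closely related catalytic subunits of the SIN3, NuRD and CoREST corepressor complexes, and HDAC3 is that of the NCoR and SMRT complexes. These class I enzymes have been described as removers of lysine lactylation, and SIRT1, SIRT2 and SIRT3 have been reported to share this activity in some settings. The class IIa proteins HDAC4 and HDAC9 move between nucleus and cytoplasm, bind MEF2 transcription factors and have little deacetylase activity of their own. HDAC4 has been linked to the survival of photoreceptors and bipolar cells. HDAC6, of class IIb, deacetylates tubulin in the cytoplasm. SIRT1 and SIRT6 are nuclear, SIRT2 is mainly cytosolic and SIRT3 is mitochondrial. The data below are levels of a histone mark on these genes and not levels of their transcripts or enzymes.

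The sequences below are those of the promoters and peaks on which the results turn, read 5′ to 3′ with the CG dinucleotides in capitals. The first 3 are the 250 bases before a RefSeq transcription start site (GRCm38.p6) and lie inside the main promoter peak of the gene. Hdac2, on the plus strand, had the strongest mark of the promoters here (chr10:36974294-36974543). Hdac4, on the minus strand, had the smallest standard error among the called promoters (chr1:92180342-92180591). Hdac9, on the minus strand, has its main promoter peak at a start site inside the gene (chr12:34528890-34529139). The last 2 are the central 300 bases, plus strand, of an Hdac4 peak that was highest at P10 (chr1:92252033-92252332, intergenic) and of an Hdac9 peak that was highest at P28 (chr12:34516963-34517262, intronic).
Hdac2 promoter: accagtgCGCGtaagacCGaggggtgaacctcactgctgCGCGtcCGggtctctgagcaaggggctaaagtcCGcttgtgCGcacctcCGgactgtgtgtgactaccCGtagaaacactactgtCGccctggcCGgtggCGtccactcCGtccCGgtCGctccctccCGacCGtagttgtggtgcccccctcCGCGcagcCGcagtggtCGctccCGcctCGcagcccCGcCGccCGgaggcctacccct
Hdac4 promoter: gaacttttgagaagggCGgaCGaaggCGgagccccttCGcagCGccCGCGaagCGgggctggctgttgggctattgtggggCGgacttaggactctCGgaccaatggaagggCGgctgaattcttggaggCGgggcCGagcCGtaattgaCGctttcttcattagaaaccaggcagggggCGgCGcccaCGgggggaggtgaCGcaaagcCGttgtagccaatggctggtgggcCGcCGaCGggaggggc
Hdac9 internal promoter: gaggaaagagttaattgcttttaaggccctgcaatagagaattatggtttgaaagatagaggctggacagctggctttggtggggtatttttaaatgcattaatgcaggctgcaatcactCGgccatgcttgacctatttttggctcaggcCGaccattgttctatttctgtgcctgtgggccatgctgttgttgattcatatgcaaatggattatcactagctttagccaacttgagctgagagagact
Hdac4 upstream peak: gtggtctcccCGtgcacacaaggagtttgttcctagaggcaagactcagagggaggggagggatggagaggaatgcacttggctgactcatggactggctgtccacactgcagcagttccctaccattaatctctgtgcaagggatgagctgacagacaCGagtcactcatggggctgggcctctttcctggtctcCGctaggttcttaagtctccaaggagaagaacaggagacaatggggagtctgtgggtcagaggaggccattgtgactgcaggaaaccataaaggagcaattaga
Hdac9 intron peak: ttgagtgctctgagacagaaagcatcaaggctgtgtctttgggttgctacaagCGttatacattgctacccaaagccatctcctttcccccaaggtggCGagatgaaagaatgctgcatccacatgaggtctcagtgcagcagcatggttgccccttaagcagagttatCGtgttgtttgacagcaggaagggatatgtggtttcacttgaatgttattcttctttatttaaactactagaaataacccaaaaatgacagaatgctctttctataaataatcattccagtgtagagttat

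The promoters of Hdac2 and Hdac4 were rich in CG, with 27 and 23 CG dinucleotides in 250 bases against a median of 6 over 32817 RefSeq promoters. The internal Hdac9 promoter held 2. Letters of 6 common promoter motifs were counted on both strands. GGGCGG, the GC box, occurred 4 times before Hdac4, 4 times before Hdac6, 6 times before Sirt1, 3 times before 1 of the 2 Sirt3 starts, and 1 time each before Hdac2, Sirt2 and 1 of the 2 Sirt6 starts, and was present in 32.7% of all RefSeq promoters. CCAAT occurred 2 times each before Hdac4, Hdac6 and Sirt2 and 1 time before 1 of the Sirt3 starts (33.8% of all). TAATCC, the core bound by the photoreceptor factor CRX and its relatives, occurred 1 time before the internal Hdac9 start and in none of the other member promoters of the RefSeq table (6.25% of all). CACGTG occurred 2 times before the RefSeq start of Sirt1 (6.02% of all). CCGGAAG occurred before 1 start each of Sirt3 and Sirt6 (6.90% of all), and TGACGTCA in none (1.55% of all). For Hdac1 and Hdac3 no promoter is given. Of the 10 genes, 8 were matched. The central windows of the Hdac4 upstream and Hdac9 intron peaks held 3 CG dinucleotides each, the median of 44210 intron peaks, and neither held TAATCC, which was present in 12.9% of intron windows. A match of letters is a description and not a binding site.

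The values are RPKM, reads per kilobase of peak with the library size normalised, and whole reads could be recovered from them. Reads in peaks ranged from 199970 to 8274373 per library, a 41.4-fold range. A single read in a peak of 1 kb was worth 0.454 and 0.597 RPKM in the P4 libraries, 1.81 and 0.788 in the P10 libraries and 0.0615 to 0.262 in the P28 libraries. At 42 of the 66 member peaks both P4 libraries had 3 reads or fewer, and at 44 both P10 libraries did. The share of the library size that fell in peaks moved with age. Its mean was 17.0 ± 0.93% for P4 (SD, n = 2), then 44.1 ± 11.3% for the P10 pair (n = 2), and 50.1 ± 7.37% in the P28 libraries (n = 3). RPKM is scaled to the library size and not to the reads in peaks, so a change in this share enters each comparison of RPKM between ages. Fits scaled to reads in peaks are given below, and the part of this share in the changes was not otherwise tested.

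Every P28 library was above every P4 library at 37 of the 66 member peaks, and below at 11, where 50.6% and 20.7% of all peaks lay apart in these ways. limma on log2(RPKM + 1) over all peaks (adjusted p under 0.01) called 9 of the 66 peaks higher at P28 and 3 lower, or 13.6% and 4.55%, where 18.9% and 4.21% of all peaks were called higher and lower. The median change was 0.96 against 0.68 over all peaks. At 6 of the 9 peaks called higher the P4 libraries had 3 reads or fewer in all, and at the 3 called lower the P28 libraries did. A peak with so few reads at 1 age could enter the table only through another, so such calls partly follow from how the peaks were chosen. At P10 against P4, 2 peaks were called higher and 3 lower (11.4% and 7.34% of all peaks), with a median change of 0.00. That split depends on the scale, since scaling each library to its reads in peaks gave 0 higher and 8 lower at P10 and voom on recovered reads 4 higher and 0 lower. At P28 the called peaks lay at promoters and in introns. Of the 40 intron peaks 5 were called higher and 3 lower, where 19.5% and 3.01% of all intron peaks were, and none of the 13 intergenic peaks was called, where 11.8% and 7.97% of all distal intergenic peaks were called higher and lower (limma, 3 at an unadjusted p under 0.05, and voom on recovered reads called 3). At P28 against P10, limma called none of the 66, where 0.00185% of all peaks were called higher, with 24 at an unadjusted p under 0.05, and voom called 8, of which 1 had no read at either age and 3 had 3 reads or fewer in all at 1 of the ages. The P28 and P10 comparisons share the P4 libraries. When each library was scaled to its reads in peaks instead, 2 peaks were called higher and 10 lower at P28, the median over the 66 moved to -0.0012 with 33 above 0, and the median over all peaks to -0.29. Without either P10 library, limma called 27 or 28 member peaks at P28 against P4 in place of 12. It called 3 without P4 replicate 1, 3 without P4 replicate 2, 6 without P28 replicate 1, 4 without P28 replicate 2 and 3 without P28 replicate 3.

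Each of the 9 genes with a peak had a promoter peak, and the one nearest an annotated start site was taken as the main promoter peak, or, where several hold a start site, the one of these with the highest mean over all libraries. The same rule, held to promoter peaks assigned to a protein-coding transcript, gave 1 promoter peak for each of 9956 protein-coding genes. Peaks of the members and gene lists were taken with any transcript type, and those of Hdac3 and Hdac5, for example, were assigned to other types. Every P28 library was above every P4 library at 9 of the 9, where this held for 79.9% of the 9956. limma called 4 of the 9 higher at P28 (Hdac1, Hdac4, Hdac9 and Sirt1), where 33.8% of the 9956 were called higher. At Sirt1 the choice of the peak was set by P28, as given below, and with its other promoter peak 3 of the 9 would be called. The Hdac1 peak could enter the table only through P28, as also given below. The median change was 1.77 against 1.36 for the 9956. It was 1.25 with median centring, 1.13 with quantile normalisation and 0.66 with scaling to reads in peaks. All 9 were also higher with median centring, and 8 of 9 with scaling to reads in peaks or quantile normalisation, with Hdac2 the exception. At P10 the change from P4 was above 0 at 8 of the 9 on the deposited scale, at 7 with median centring or quantile normalisation, and at 3 with scaling to reads in peaks (Hdac1, Hdac4 and Hdac6). Of the 9, 0 were called with scaling to reads in peaks, 8 without either P10 library, and 1 without P4 replicate 1, P4 replicate 2, P28 replicate 2 or P28 replicate 3. Marks on photoreceptor genes moved with age as well. All 6 photoreceptor marker promoters (Crx, Sag, Gnat1, Pde6b, Cnga1 and Rcvrn) were called higher at P28 and at P10, and their summed level went from 13.7 and 17.4 RPKM at P4 to 108 and 110 at P10 and 101 to 150 at P28. With scaling to reads in peaks 5 of the 6 were called at P28 and 2 at P10, with quantile normalisation 5 and 1, without P4 replicate 1 also 5 and 1, without P4 replicate 2 it was 5 and 2, and without P28 replicate 2 it was 6 and 3. After thinning to the smallest library 2 of the 6 were called at P28 and 0 at P10. The change was above 0 at all 6 in each of these fits. The part of this in the member changes was not tested. More cells that carry the mark and more mark per cell cannot be told apart in whole retina.

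**Figure D1:**
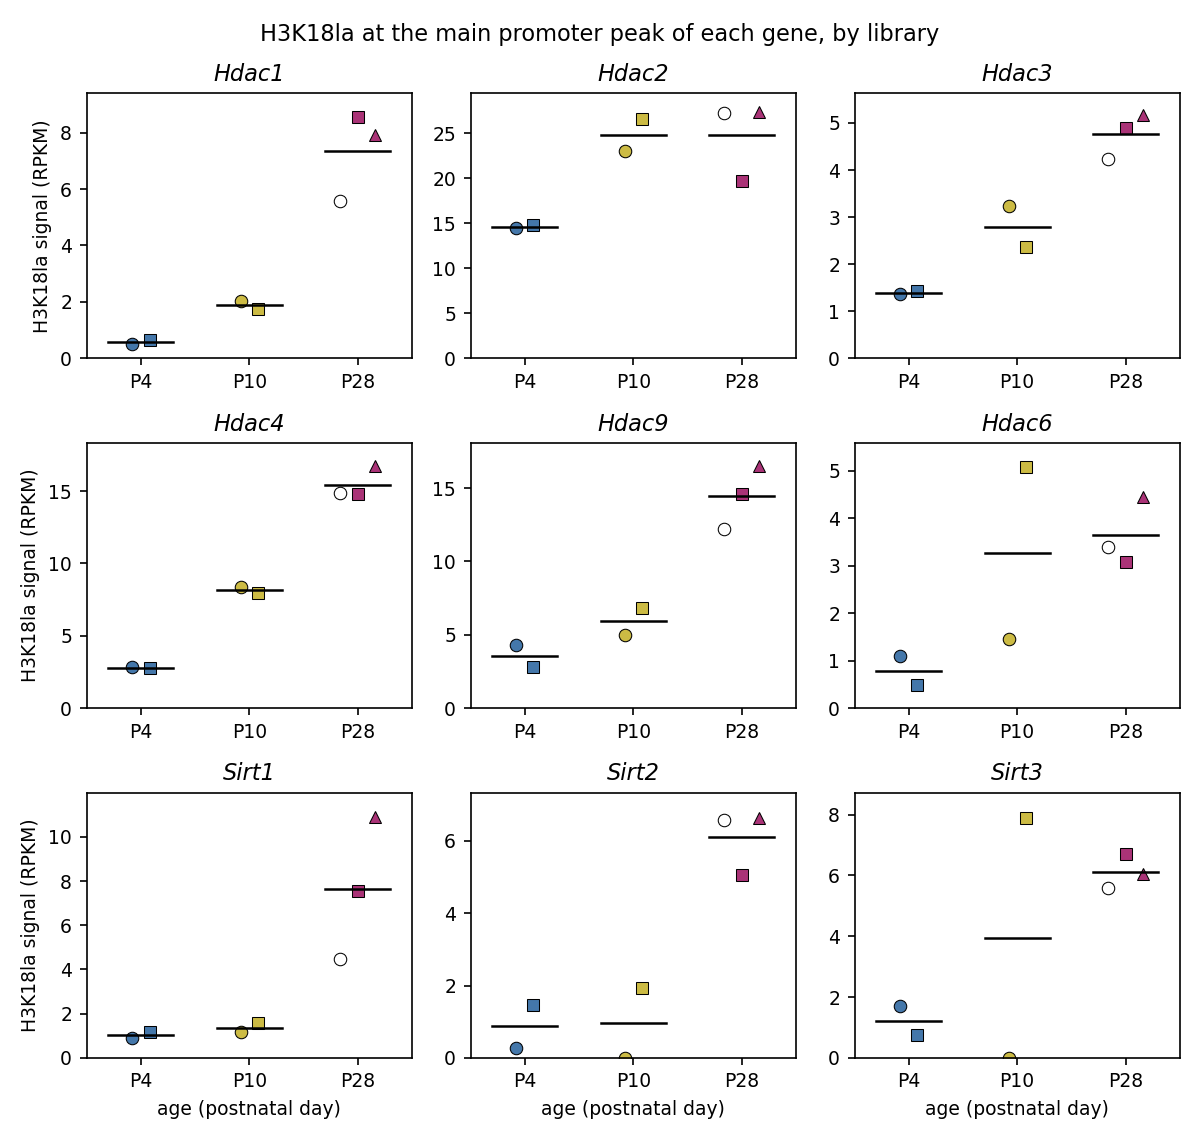
H3K18La signal (RPKM, linear axis from 0) at the main promoter peak of the 9 deacylase genes that have one, by age. Points are libraries (circle, square and triangle for replicates 1, 2 and 3, with P28 replicate 1, of batch 2, drawn open) and lines are group means; all P28 points lie above all P4 points in each panel, and Hdac2 starts at 14.5 and 14.8 RPKM at P4.

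Hdac1 and Hdac2, the paired class I subunits, had the lowest and the highest promoter means of the set at P4. The Hdac1 promoter (chr4:129542190-129543082) had 0.509 and 0.668 RPKM at P4, which was 1 read in each library. It had 2.02 and 1.77 RPKM at P10, and 5.58, 8.54 and 7.93 at P28. The ages did not overlap, and P28 exceeded P4 by 2.38 on the log2 scale (SE 0.38, limma adjusted p = 0.00117). From the pooled reads, 2 at P4 and 184 at P28, the ratio was 13.8 with an exact 95% interval of 3.76 to 115, which covers counting error only. A second Hdac1 peak, in an intron, 16.6 kb from the start site (chr4:129524868-129526123), had 0.362 and 0.475 RPKM at P4 and 3.13, 4.70 and 4.95 at P28. It was also called (1.87, SE 0.44, adjusted p = 0.00797). Both Hdac1 calls rest on P4 levels of 1 read per library. At P10 the promoter had 3 reads in all and the intron peak 2. Both peaks could thus enter the table only through P28, so their differences from P4 follow from that choice and their calls add no support. The intron call held only without P10 replicate 1 or 2 (adjusted p up to 0.0480 in the other 5 fits with a library left out), and the promoter call was lost (adjusted p up to 0.0142) without either P4 library, without P28 replicate 2 or without P28 replicate 3. With scaling to reads in peaks both calls were lost, at 1.51 for the promoter (adjusted p = 0.0110) and 1.13 for the intron peak (adjusted p = 0.0609). The intron call was also lost with median centring (1.35, adjusted p = 0.0321), a pseudocount of 0.1 (adjusted p = 0.0162) and a replicate block (adjusted p = 0.0512).

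The Hdac2 promoter (chr10:36973853-36975423) carried the strongest mark of the 9 main promoters at each age. It had 14.5 and 14.8 RPKM at P4, 23.0 and 26.6 at P10, and 27.2, 19.7 and 27.4 at P28. P4 lay below the other ages, which overlapped each other. The increase to P28 was 0.70 (SE 0.25, adjusted p = 0.0473), not called. With 89 reads at P4, this was the best counted of the P4 promoters here, and the pooled ratio was 1.54 (95% interval 1.24 to 1.94). Scaling to reads in peaks turned the change to -0.78 (adjusted p = 0.0235), and quantile normalisation to -1.35 (adjusted p = 0.00155), so that the direction at Hdac2 depends on the scale. The ratio of the Hdac1 to the Hdac2 promoter within a library does not. It was 0.0352 and 0.0451 at P4, 0.0880 and 0.0664 at P10, and 0.205, 0.434 and 0.290 at P28. The P28 ratios were above the others, while the Hdac1 promoter had 1 read in each P4 library and 1 and 2 in the P10 libraries, too few to separate P4 from P10. This pair was chosen after its values were seen and was not tested. The other Hdac2 peaks lie outside the gene, and of these the one with the largest change, on the 3′ side of the gene (chr10:37016165-37016485), had 6 reads at P4 and 4 at P28. Its values were 4.25 and 5.58 RPKM at P4, 0.00 and 2.46 at P10, and 0.00 to 0.574 at P28, and its change of -2.13 was not called (adjusted p = 0.0134). The peak 74.9 kb from the start site (chr10:36897746-36899685) went the other way, with 4 reads at P4 and 156 at P28 (1.49, SE 0.48, adjusted p = 0.032, not called). The remaining intergenic peak (chr10:36917775-36919124) changed by -0.85 (SE 0.47, adjusted p = 0.163).

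The promoter peak of Hdac3 (chr18:37954345-37956015), its only peak, had 1.36 and 1.43 RPKM at P4, 3.24 and 2.36 at P10, and 4.24, 4.89 and 5.17 at P28. The values did not overlap between ages on this scale. The change to P28 was 1.27 (SE 0.36, adjusted p = 0.0193), not called, with a pooled ratio of 3.5 (1.81 to 7.75). With scaling to reads in peaks it was 0.17 (adjusted p = 0.729), and the change to P10 turned from 0.66 (adjusted p = 0.236) to -0.25 (adjusted p = 0.645). The peak also holds the start site of Rell2 on the opposite strand, so its signal belongs to no single gene.

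Hdac4 had the most peaks of the set (31) in a gene of 267 kb, 18 of them in introns and 10 intergenic. Its promoter (chr1:92180020-92181309) had 2.82 and 2.78 RPKM at P4, 8.40 and 7.94 at P10, and 14.9, 14.8 and 16.7 at P28. The libraries of an age lay close together and the ages were well apart. The increase was 2.11 at P28 (SE 0.27, adjusted p = 0.000406) and 1.27 at P10 (SE 0.29, adjusted p = 0.00880), the only member promoter called at P10. The P28 call held in all 7 fits with a library left out (adjusted p at most 0.00607). It was lost with scaling to reads in peaks (0.82, adjusted p = 0.0304) and with quantile normalisation (1.01, adjusted p = 0.0138). The P10 call held in none of the 7 (adjusted p 0.0126 to 0.0292), with the change at 1.24 to 1.31. At P10 the change was 0.17 with scaling to reads in peaks (adjusted p = 0.664), 0.38 with quantile normalisation (adjusted p = 0.358), and 1.02 with median centring (adjusted p = 0.0141), and the call was also lost with voom (adjusted p = 0.0623) and a replicate block (adjusted p = 0.0160). Among the 9956 promoters, 12% were called higher at P10.

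Of the other 30 Hdac4 peaks, limma called 1 higher and 1 lower at P28, with a median change of 0.46, where 18.9% and 4.21% of all peaks were called and their median was 0.68. An intron peak 115.9 kb downstream of the promoter peak (chr1:92063915-92065610) had 0.00 and 0.352 RPKM at P4, 1.06 and 2.79 at P10, and 3.71, 4.64 and 4.58 at P28. It was called higher at P28 (2.19, SE 0.45, adjusted p = 0.00438), although P4 had 1 read in all, and the call held only in the 2 fits without a P10 library (adjusted p up to 0.0384 in the other 5). It was also lost with scaling to reads in peaks (1.71, adjusted p = 0.0151), a pseudocount of 0.1 (adjusted p = 0.0116) and a replicate block (adjusted p = 0.0218). The peak called lower, also intronic (chr1:91941745-91942252), had 3 reads at P4 and none at P10 or P28, so that it entered the table through P4 and its call adds no support. The call was lost without P28 replicate 1 (adjusted p = 0.0105). No fold is given because both ages were at or under 3 reads, and the 0 reads at P10 allow a level as high as that of P4.

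The Hdac4 peaks farthest upstream were highest at P10, and so was an intron peak 3.75 kb downstream of the promoter peak (chr1:92176561-92177269). That intron peak had 0.641 and 0.00 RPKM at P4, 5.09 and 3.34 at P10, and 1.46 to 1.65 at P28. Its change from P4 to P10 was 2.00 (SE 0.49, limma adjusted p = 0.01085, not called), on 1 read at P4 and 5 at P10. Intron peaks 21.3 and 100.7 kb downstream changed by 1.67 and 1.64. The peak 71.5 kb upstream of the promoter peak (chr1:92251877-92252488) had 1.49 and 0.975 RPKM at P4, 11.8 and 10.3 at P10, and 3.00, 2.81 and 3.67 at P28. P10 was above both other ages without overlap, and exceeded P4 by 2.44 (SE 0.37, adjusted p = 0.00170). The P10 values were 4 and 8 reads, with a pooled ratio to P4 of 8.51 (2.30 to 47.0). The farthest peak, 75.3 kb upstream (chr1:92255561-92256414), had 1.60 and 1.4 RPKM at P4, 6.34 and 8.31 at P10, and 1.84, 1.80 and 1.21 at P28 (P10 against P4 1.73, SE 0.42, adjusted p = 0.0110, not called). Between them, at 73.4 kb, the values were 2.26 and 2.96 RPKM at P4, 4.48 and 11.7 at P10, and 2.28 to 3.28 at P28. The other 7 intergenic Hdac4 peaks differed from P4 by -1.56 to 0.52 at P10, and the lowest of them, 31.3 kb upstream (chr1:92211306-92212707), had 4.86 and 4.68 RPKM at P4, 0.00 and 2.81 at P10, and 1.67 to 2.25 at P28 (P10 against P4 -1.56, adjusted p = 0.0733). These neighbours and the intron peaks were chosen after their values were seen. Within a library, the ratio of the 71.5 kb peak to the Hdac4 promoter was 0.527 and 0.351 at P4, 1.41 and 1.30 at P10, and 0.190 to 0.219 at P28, which does not depend on the scale. The P10 call for the 71.5 kb peak was lost without P4 replicate 2 (adjusted p = 0.0114) and held in the other 6 fits with a library left out. It was also lost with scaling to reads in peaks (1.53, adjusted p = 0.0153) and with quantile normalisation (1.94, adjusted p = 0.0105).

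Hdac9, the other class IIa gene, spans 869.5 kb and had 17 peaks, all within the gene. Its main promoter peak (chr12:34526857-34529387) lies at internal start sites and is poor in CG, with 1.11 CG dinucleotides in 100 bases, a density above that of 3.63% of the 9956 promoter peaks. It had 4.31 and 2.83 RPKM at P4, 4.99 and 6.85 at P10, and 12.2, 14.6 and 16.5 at P28. The P28 libraries stood above all others. The change from P4 was 1.77 (SE 0.31, adjusted p = 0.00185) over 36 reads at P4 and 961 at P28, a pooled ratio of 4.0 (2.87 to 5.75). The call was lost with scaling to reads in peaks (0.43, adjusted p = 0.207) and quantile normalisation (0.51, adjusted p = 0.219), without either P4 library, without P28 replicate 2 and without P28 replicate 3 (adjusted p at most 0.0210). The upstream promoter peak, 379.1 kb away (chr12:34906463-34907901) and rich in CG (8.76 in 100 bases), had 2.21 and 1.24 RPKM at P4, 3.76 and 0.548 at P10, and 2.19, 3.03 and 2.76 at P28. Its change was 0.44 (SE 0.53, adjusted p = 0.517), and P4 and P28 overlapped. Within a library the internal peak was 1.95 and 2.27 times the upstream one at P4 and 4.81 to 5.98 times at P28, while the P10 libraries, at 1.33 and 12.5 times, overlapped both ages. This ratio was chosen after its values were seen and was not tested.

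The strongest Hdac9 signal at P28 was not at a promoter but in an intron, downstream of the internal start. A peak 11.0 kb inside (chr12:34516812-34517413) had 4.53 and 1.98 RPKM at P4, 0.00 and 7.86 at P10, and 23.5, 24.3 and 33 at P28. Its neighbour at 9.63 kb (chr12:34518087-34518905) had 2.22 and 1.46 RPKM at P4, 0.00 and 1.93 at P10, and 8.33, 8.93 and 13.3 at P28. All P28 values were above all earlier ones at both. The changes from P4 were 2.77 (SE 0.73, adjusted p = 0.0137) and 1.97 (SE 0.49, adjusted p = 0.0105), not called, while limma's F-test over the 3 ages called both (adjusted p = 0.00922 and 0.00420). The pooled ratio at the first was 7.62 (3.83 to 17.8) with 8 reads at P4 and 407 at P28, and its adjusted p was 7.08e-05 without P10 replicate 1 and 7.51e-05 without P10 replicate 2. It was not called in the other 5 fits with a library left out (adjusted p 0.0405 to 0.177). The F-test called 24.6% of all peaks. P10 replicate 1, with 199970 reads in peaks, had no read at either peak, which allows up to 3.

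Of the 16 other Hdac9 peaks, limma called 2 higher and 2 lower at P28, or 12.5% each, all in introns and on few P4 reads, where 19.5% and 3.01% of all intron peaks were called. A peak 28.9 kb inside (chr12:34499014-34499510) had no read at P4 or P10 and 1.06, 3.09 and 4.17 RPKM at P28, at least 1.95-fold higher than P4 against a floor of 3 reads over the P4 libraries, while the exact 95% interval of the pooled ratio starts at 1.51. With no read in the earlier libraries, such a peak entered the table through the age at which it is high, so its difference from P4 follows from that choice and its call adds no support. A peak upstream of the internal promoter (chr12:34699393-34700129) had 0.617 and 0.00 RPKM at P4, which was 1 read, none at P10, and 2.49, 3.42 and 4.69 RPKM at P28, and the same holds for its call. The peaks called lower (chr12:34201075-34201570 and chr12:34843761-34844080) had 5 and 3 reads at P4, 2 and 1 at P28, and none at P10, so that they entered the table through P4 and their calls add no support either. The 0 reads at P10 allow a level as high as that of P4. The pooled ratio of P28 to P4 at the first was 0.0599 (0.00571 to 0.366), and none is given for the second, at or under 3 reads at each age. Both higher calls and the first of the lower ones were lost without P4 replicate 1, P4 replicate 2, P28 replicate 2 or P28 replicate 3, the call at chr12:34699393 also without P28 replicate 1, and the second lower call without P28 replicate 1 or 3 (adjusted p up to 0.0755).

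**Figure D2:**
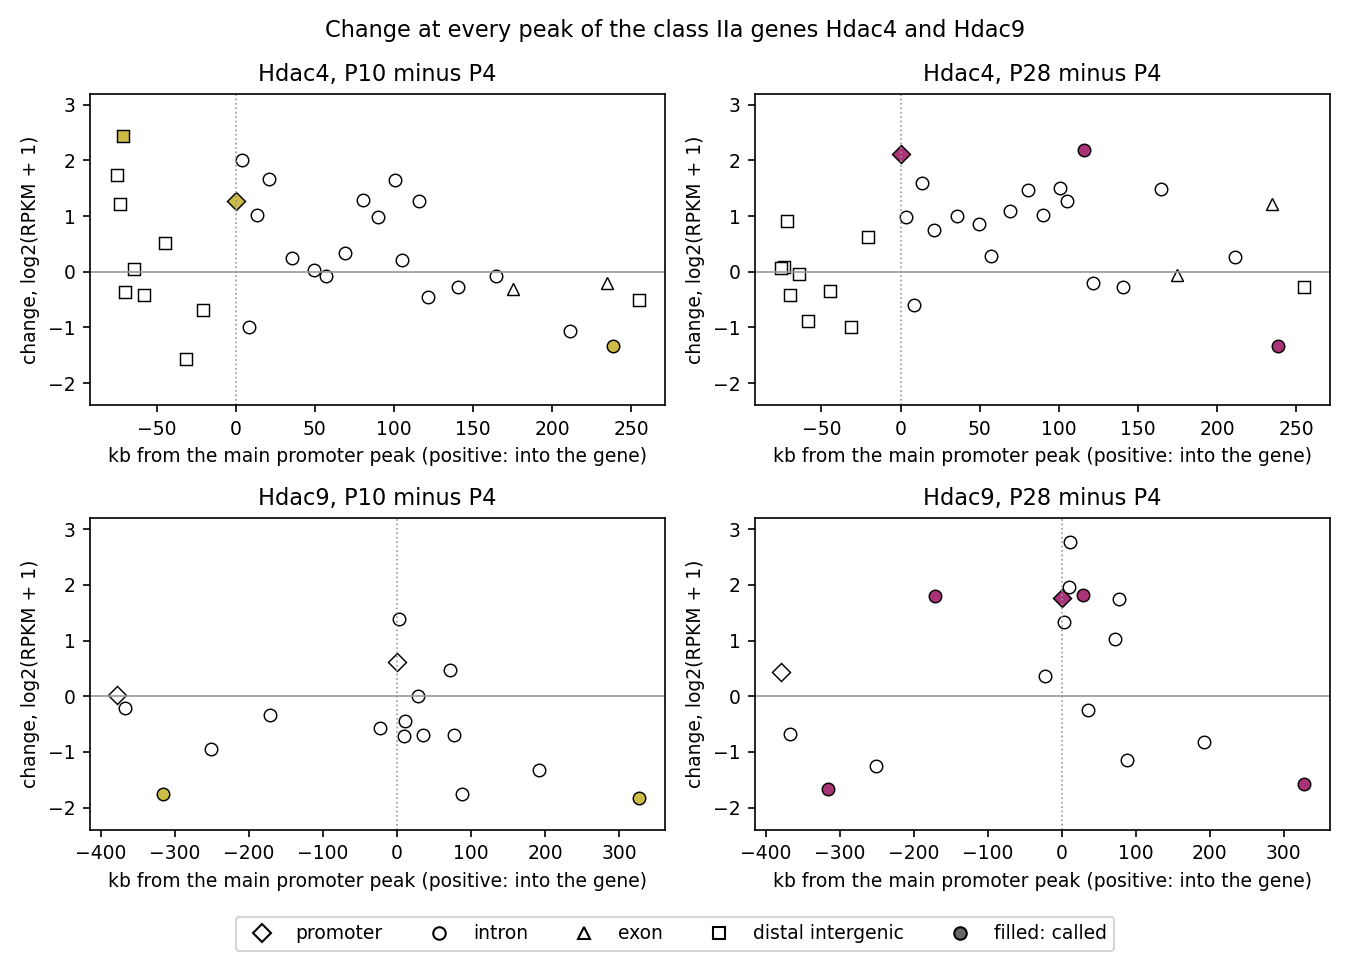
Change in log2(RPKM + 1) from P4 to P10 (left) and P28 (right) at each of the 31 Hdac4 peaks and 17 Hdac9 peaks, by distance in kb from the centre of the main promoter peak, positive into the gene. Marker shapes give the annotation and filled markers were called by limma. The largest Hdac4 change at P10 (2.44) is 71.5 kb upstream, followed by an intron peak 3.75 kb into the gene (2.00). The largest Hdac9 change at P28 (2.77) is 11.0 kb from the internal promoter.

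**Figure D3:**
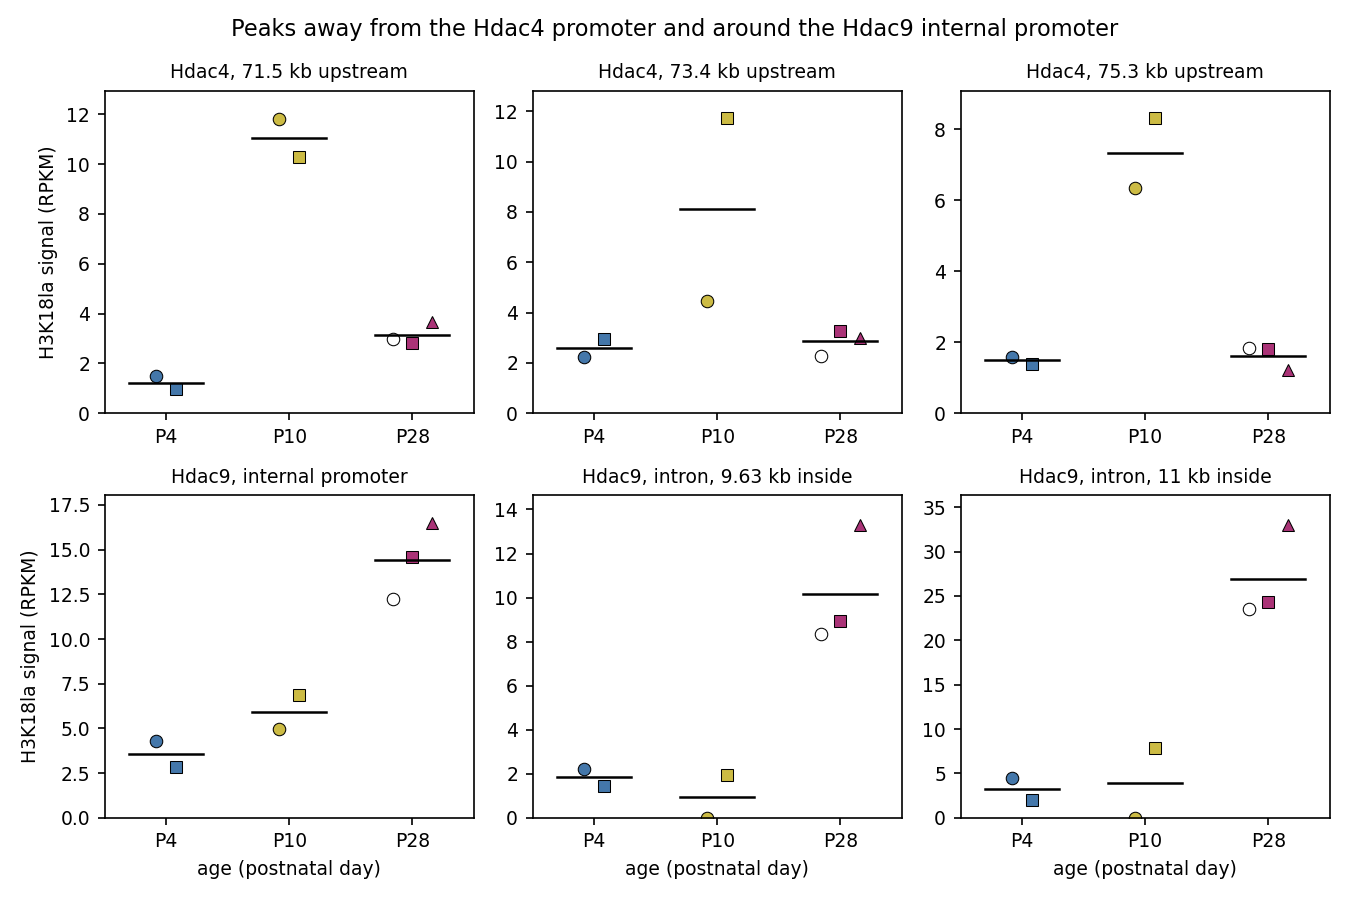
H3K18La signal (RPKM, linear axes from 0) by age at the Hdac4 peaks 71.5, 73.4 and 75.3 kb upstream and at the Hdac9 internal promoter and its 2 intron neighbours. Points are libraries (P28 replicate 1 drawn open) and lines are group means; the Hdac4 peaks are highest at P10, up to 11.8 RPKM, and the Hdac9 peaks at P28, up to 33 RPKM.

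The only peak of Hdac6, the tubulin deacetylase, was its promoter (chrX:7947348-7948588). It had 1.10 and 0.481 RPKM at P4, 1.46 and 5.08 at P10, and 3.38, 3.07 and 4.45 at P28. The P10 libraries lay on both sides of the P28 values, at 1 and 8 reads. The change to P28 was 1.38 (SE 0.48, adjusted p = 0.0432), not called, with a pooled ratio of 4.12 (1.57 to 15.4).

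At the sirtuins, the P28 libraries were above the P4 libraries at each main promoter, and limma called Sirt1 alone. The main promoter peaks of Sirt1, Sirt2 and Sirt3 each hold the start site of a protein-coding gene on the opposite strand (Dnajc12, Nfkbib and Psmd13). With Hdac3 this makes 4 of the 9 member promoters, while 10.1% of the 9956 promoter peaks hold the start of another protein-coding gene. The mark at such a peak cannot be divided between both genes.

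Sirt1 had 7 peaks, 2 of them promoters. The main one (chr10:63381390-63382908), at the start of the longest Sirt1 gene model and of Dnajc12, had 0.897 and 1.18 RPKM at P4, 1.19 and 1.56 at P10, and 4.49, 7.57 and 10.9 at P28. P28 stood alone, 2.02 above P4 (SE 0.43, adjusted p = 0.00487). The call was lost with scaling to reads in peaks (0.98, adjusted p = 0.0593), with a pseudocount of 0.1 (adjusted p = 0.0104), with a replicate block (adjusted p = 0.0259), and in 4 of the 7 fits with a library left out, those without either P4 library, without P28 replicate 2 and without P28 replicate 3 (adjusted p up to 0.0442). The peak at the RefSeq start of Sirt1 (chr10:63338358-63340124), among the richest in CG of the member peaks (10.6 in 100 bases), had 1.54 and 1.69 RPKM at P4, 1.02 and 3.12 at P10, and 4.31, 4.28 and 6.06 at P28. Its change was 1.16 (SE 0.43, adjusted p = 0.0522), not called. This peak had the higher mean of the pair at P4 (1.62 against 1.04) and P10 (2.07 against 1.37), and the peak taken as the main one had the higher mean at P28 alone (7.66 against 4.88). An intron peak between them (chr10:63367988-63368442) was called higher, with no read at P4 or P10 and 2, 14 and 2 reads at P28, so that it too entered the table through P28. Set against a floor of 3 reads over the P4 libraries, those 18 reads come to 0.899 times P4, so 0 reads at P4 allow a level as high as that of P28. The call was lost without P4 replicate 1, P4 replicate 2 or P28 replicate 1 (adjusted p up to 0.0485).

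Sirt2 had a promoter and an intron peak. The promoter (chr7:28766272-28767908) had 0.278 and 1.46 RPKM at P4, 0.00 and 1.93 at P10, and 6.57, 5.07 and 6.65 at P28, a change of 1.99 from P4 (SE 0.54, adjusted p = 0.0157). The intron peak, 13.4 kb from the start (chr7:28780182-28781855), was the higher of the pair in 6 of the 7 libraries, with 1.09 and 1.78 RPKM at P4, 2.16 and 8.01 at P10, and 6.27, 7.75 and 9.90 at P28 (1.88, SE 0.46, adjusted p = 0.0103). P28 was above P4 at both, and limma called neither. Sirt3, with its promoter alone (chr7:140881637-140882434), had 1.71 and 0.748 RPKM at P4, 0.00 and 7.90 at P10, and 5.59, 6.70 and 6.06 at P28. The P10 libraries lay at both extremes, at 0 and 8 reads. The change to P28 was 1.71 (SE 0.75, adjusted p = 0.0906).

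Sirt6 (chr10:81621785-81627797, minus strand) had no peak on it at all. The nearest peak, 26.2 kb from its start site, was a promoter peak of Tle6 with 0.652 to 2.62 RPKM over the 7 libraries. Since the table holds only regions where peaks were called, no level or limit can be given for Sirt6.

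The rank of a promoter within its own library does not depend on the scale between libraries. Ranks were percentiles among the 9956 genes, and exact two-sided permutation tests on them cannot go below p = 0.2 for 3 against 2 libraries. Hdac2 was at the top throughout, at the percentiles 99.99 and 99.98 in the P4 libraries and between 96.3 and 99.2 at P28. Its P28 ranks were all below its P4 ranks, a difference of -2.15 points (exact p = 0.2). Hdac1 moved the most, from 15.7 and 19.1 at P4 through 43.3 and 27.2 at P10 to 59.0, 75.6 and 65.9 at P28 (49.4 points, exact p = 0.2). These ranks rest on 1 read in each P4 library and on 1 and 2 reads at P10, so they depend on depth. A single read ranked at 15.7 in P4 replicate 1 and at 43.3 in P10 replicate 1. The Hdac1 peak could enter the table only through P28, so this move adds no support. Sirt1 was higher at P28 by 34 points and Sirt2 by 31.8, and Hdac4 went from a mean of 77.3 to 92.1, each with all P28 ranks above all P4 ranks (exact p = 0.2). The choice of the Sirt1 peak was set by its P28 level, so its rise in rank partly follows from that choice. Hdac9 (5.68 points, exact p = 0.8), Hdac6 (9.33, exact p = 0.4) and Sirt3 (20.7, exact p = 0.4) overlapped between P4 and P28. Hdac3 differed by 3.1 points (exact p = 0.2). At P28, Hdac1 at a mean of 66.8 and Sirt1 at 66.0 were not separate, nor were Sirt2 and Sirt3 at 58.6 and 59.1.

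**Figure D4:**
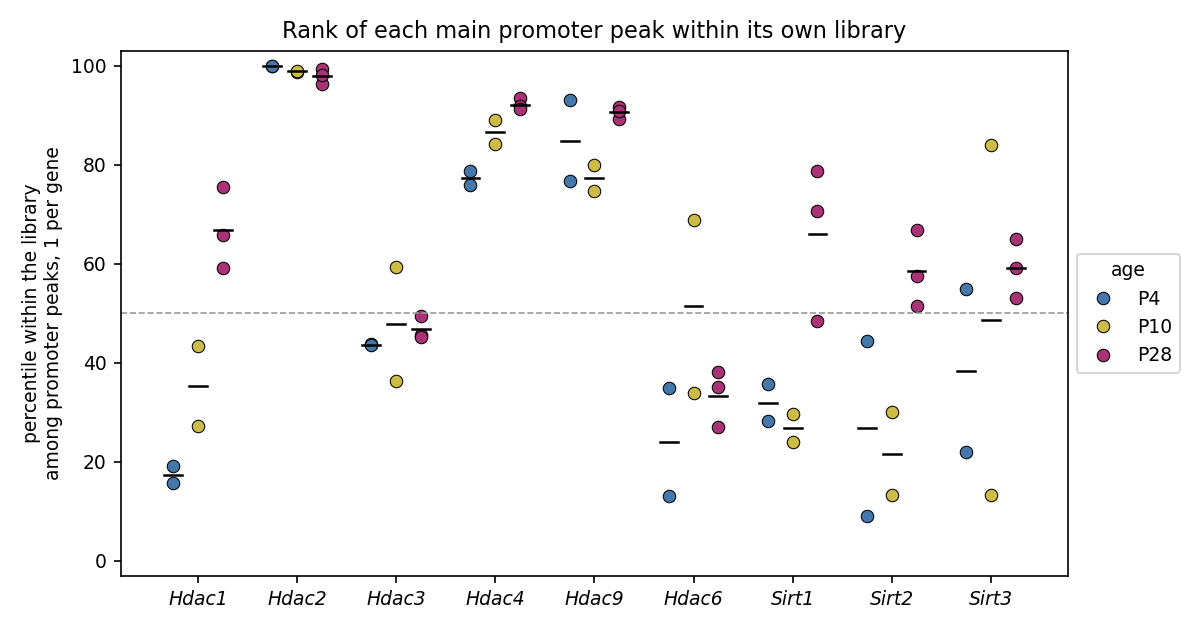
Percentile of each main promoter peak within its own library, among promoter peaks of 9956 protein-coding genes (1 per gene), for 9 deacylase genes at P4, P10 and P28. Points are libraries, short lines are group means and the dashed line is the 50th percentile. Hdac2 stays above 96 in every library. Hdac1 goes from 15.7 to as high as 75.6, with 1 read in each P4 library.

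Over all of a gene's peaks together, RPKM per covered base was higher at P28 than at P4 at each of the 9 genes. The ratio of means was 11.3 at Hdac1, 6.10 at Sirt2, 4.98 at Sirt3, 4.60 at Hdac6, 3.85 at Sirt1, 3.42 at Hdac3, 2.98 at Hdac9, 2.11 at Hdac4 and 1.58 at Hdac2. All P28 libraries were above all P4 libraries each time, as at 79.9% of the 9956 promoter peaks and 50.6% of all peaks (exact permutation p = 0.2, the smallest possible). The P4 libraries had 2 and 2 reads at Hdac1, and 3 and 1 at both Sirt3 and Hdac6. Both Hdac1 peaks entered the table through P28. Without P4 replicate 1 or 2, the log2 change was 2.12 or 3.36 at Sirt2, 3.03 or 1.84 at Sirt3, and 2.92 or 1.73 at Hdac6. Scaled to reads in peaks, the log2 change of Hdac2 (-0.88) and Hdac4 (-0.47) was below 0 and that of Hdac9 was -0.0012, while the other 6 stayed above 0, from 0.22 at Hdac3 to 1.94 at Hdac1.

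The rest of the deacylase family was given by a fixed list of 8 genes (Hdac5, Hdac7, Hdac8, Hdac10, Hdac11, Sirt4, Sirt5 and Sirt7), of which 7 had a promoter peak. limma called 1 of the 7 higher at P28, where 33.8% of all promoters were. The count was 5 of 7 without either P10 library and 3 of 7 with voom. The 1 called was Hdac5, also of class IIa, with 0.596 and 0.521 RPKM at P4, 9.46 and 11.4 at P10, and 11.0, 15.5 and 18.6 at P28. Its change was 3.33 (adjusted p = 0.000152) at P28 and 2.87 (adjusted p = 0.000805) at P10, a larger change than that of each member promoter. The smallest changes were at Hdac7 (0.68, adjusted p = 0.106) and Hdac11 (1.03, adjusted p = 0.221). The median of the 7 was 1.64. All 7 were above 0 on the deposited scale and with median centring, and 5 with scaling to reads in peaks or quantile normalisation.

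The corepressor partners of the HDACs and the genes that make or use NAD were compared in the same way. Of 30 corepressor genes, 26 had a promoter peak, 14 were called higher at P28, with a median of 1.62. The count was 2 without P4 replicate 1, 4 without P4 replicate 2, 21 without either P10 library, and 8, 6 and 5 without P28 replicate 1, 2 and 3. Sap30, a subunit of the SIN3 complex, changed by 2.57 (adjusted p = 0.000566), Ncor1, the HDAC3 partner, by 2.43 (adjusted p = 0.00222) and Mbd3, of NuRD, by 2.34 (adjusted p = 0.00127). Mta3 (0.00, adjusted p = 0.999) and Rcor2 (0.27, adjusted p = 0.654) had the smallest changes. Of 16 NAD genes, 12 had a promoter peak and 7 were called higher, with a median of 1.70. The count was 3 without P4 replicate 1, P4 replicate 2 or any one P28 library, and 10 without either P10 library. The poly-ADP-ribose polymerase gene Parp1 had no read at P4 and 5.97, 8.39 and 11.6 RPKM at P28, and it too could enter the table only through the later ages. The mitochondrial NAD kinase gene Nadk2 changed by 3.1 (adjusted p = 0.000149) and the NAD hydrolase gene Sarm1 by 2.91 (adjusted p = 0.000239). Nmnat2 (-0.23, adjusted p = 0.723) and Cd38 (0.44, adjusted p = 0.332) had the smallest changes. The share called higher among all promoters was 33.8% as above. With scaling to reads in peaks the calls fell to 0 of 26 and 3 of 12, and 21 of 26 and 8 of 12 remained above 0.

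**Figure D5:**
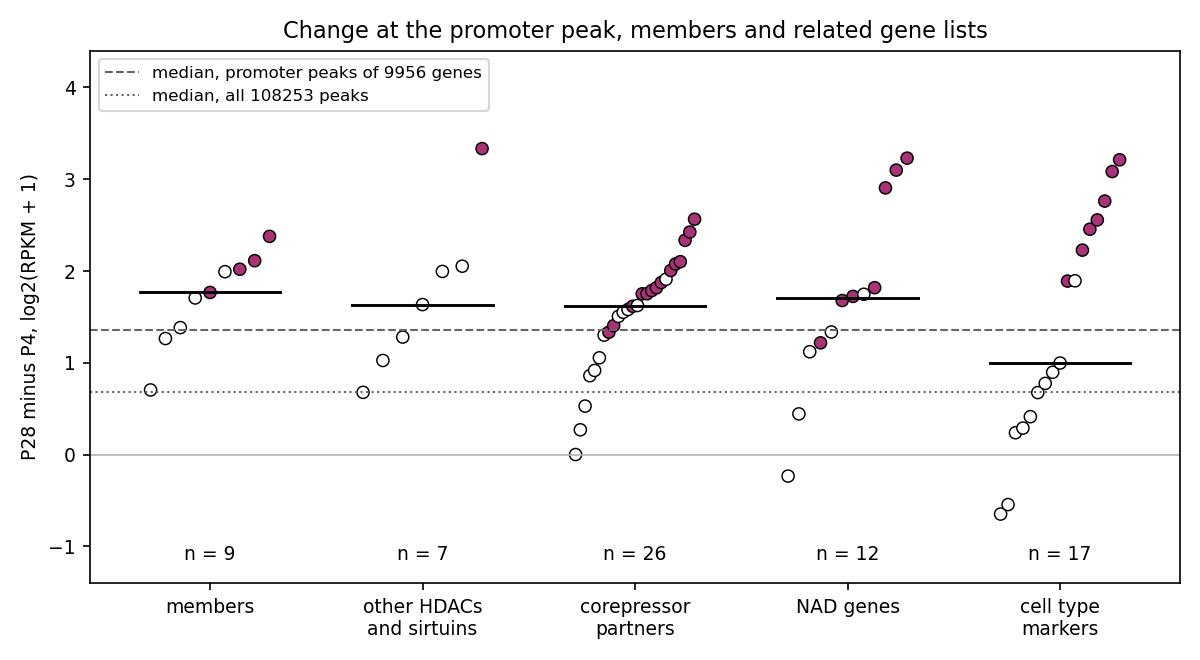
Change at the promoter peak from P4 to P28, log2(RPKM + 1), for the deacylase genes (n = 9), the other HDAC and sirtuin genes (n = 7), corepressor partners (n = 26), NAD genes (n = 12) and cell type markers (n = 17). Filled points were called higher by limma, solid bars are list medians and the horizontal lines are the medians of 9956 promoter peaks (1.36) and of all peaks (0.68); the member median is 1.77 and Hdac5 lies at 3.33.

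Of 4 bipolar cell markers with a promoter peak none was called by limma at P28 (2 at an unadjusted p under 0.05, and 1 called by voom), with a summed level of 5.92 and 2.18 RPKM at P4, 2.47 and 4.75 at P10 and 11.0 to 14.8 at P28, and Cabp5 without a read at P10. Of 3 Mueller glia markers, Glul was called, and the summed level was 6.89 and 5.61 at P4, 14.8 and 13.7 at P10, and 15.2 to 19.9 at P28. The 2 amacrine and ganglion cell markers with a promoter peak (Gad1 and Rbpms) summed to 5.62 and 6.23 at P4, 3.48 and 7.31 at P10, and 2.41 to 4.56 at P28. Of the microglia and vessel markers, Cldn5 had 2.14 and 1.41 RPKM at P4, 4.26 and 7.44 at P10, and 2.17 to 2.48 at P28. Their part in the member results was not tested. Promoter peaks were not found for the pigment epithelium markers Rpe65 and Tyr, for the blood marker Hba-a1 or for Cx3cr1, Pou4f2 and Tfap2b, and Best1 stood at 1.37 and 1.2 at P4, 0.00 and 0.791 at P10, and 2.63 to 4.33 RPKM at P28.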

How the data were processed

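H3K18La CUT&Tag libraries of whole mouse retina were analysed from a table of RPKM values that the authors deposited, with 1 value per merged peak and library. The labels name protein A fused to MNase as the enzyme, and the study's methods name protein A fused to the transposase Tn5. Per the study's methods, reads were mapped to GRCm38 with nf-core/cutandrun, peaks were called with MACS at a q-value of 1e-06 in at least 2 replicates (of 3 per its text, while 2 libraries each at P4 and P10 were analysed here), and ChIPseeker (version 1.34.1) assigned each peak to a gene, with promoters from -1000 to 500 bases around a start site. Counts were normalised over windows of 10000 bases. A deposited table of differential binding, with log2 fold changes and p-values, was not used. The authors' RPKM values multiplied by peak width gave whole reads for 100% of values (tolerance 0.1 reads). R 4.3.3 with limma 3.58.1 fitted every peak in all 7 libraries at once, on log2(RPKM + 1) values with the trended variance prior, and p-values were adjusted by Benjamini-Hochberg over all 108253 peaks, with calls at 0.01. The log2(RPKM + 1) scale understates the change of low peaks. Ratios of pooled reads carry exact (Clopper-Pearson) 95% intervals, and these and the floor of 3 reads cover counting error only, since reads had no molecular identifiers. No replicates of an age held identical values, and a chi-square test of their reads gave, per degree of freedom, 1.24 at P4, 1.57 at P10 and 1.52 to 3.70 at P28, above the 1 of pure counting noise. The members and the gene lists were chosen with earlier results of these data known. All members were named with their promoter peak, and of their other peaks those called, at most 3 per gene by size of change, or otherwise the highest one; of each list, up to 3 called genes with the largest change and the 2 with the smallest were named. The Hdac4 peaks beside the called upstream peak, the Hdac4 intron peaks set beside them, the Hdac9 neighbour peaks and the alternative promoters were described after their values were seen. Gene models were from GENCODE vM21, promoter sequences from RefSeq (GRCm38.p6), the build of the files; sequence was read with Python 3.11.15 and pyfaidx 0.9.0.4. Alternatives were another pseudocount (0.1), scaling to reads in peaks, median centring, quantile normalisation, a low-value filter, voom on recovered reads, thinning to the smallest library, a replicate block and leaving out each library.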

Additional observations from a re-analysis of the deposited data

How the results depend on the processing

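On the deposited scale limma called 12 of the 66 member peaks at P28 against P4. It called 7 with a pseudocount of 0.1, 7 with the low-value filter (29 member peaks tested), 26 with voom on recovered reads, 3 after thinning to the smallest library and from 3 to 28 with a library left out. Of the 9 main promoters, 4 were called, against 0 with scaling to reads in peaks, 8 with voom, 2 after thinning and from 1 to 8 with a library left out. At P10 against P4, 5 peaks became 8 with scaling, 3 with the filter, 1 after thinning and from 2 to 8 with a library left out, and the 1 promoter became 0 with scaling, median centring and voom and from 0 to 1 with a library left out. At P28 against P10, 0 peaks became 1 with the pseudocount, 1 with median centring, 8 with voom and from 0 to 11 with a library left out, and 0 promoters became 2 with voom and from 0 to 2 with a library left out. Without P28 replicate 1, which leaves batch 1 alone, 6 member peaks and 4 promoters were called at P28 against P4. With quantile normalisation 2 of the 9 main promoters were called higher and 1 lower (Hdac2) at P28 against P4, and 0 higher and 1 lower at P10 against P4. Quantile normalisation turned the Hdac2 promoter to -1.35 at P28 and -1.37 at P10 against P4, and voom put the Hdac4 intron peak at chr1:91941745 at -3.13 at P28 against P10. The cause was not tested in these cases, apart from the smaller number of libraries or peaks.

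Same-numbered libraries of different ages had correlations of deviations from -0.001 to 0.047. The median peak had 1 or 2 reads in the P4 and P10 libraries, so correlations this low cannot settle whether replicate numbers pair the libraries. With a replicate block, limma called 7 member peaks at P28 against P4 and 0 promoters at P10 against P4, and 15233 of all peaks at P28 against P4 in place of 25041. Depth limits the early ages most, where 1 read in a peak of 1 kb was worth up to 1.81 RPKM.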
